A study of Mus musculus with 57 samples.

Results

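The genes described here are 8 transcriptional regulators of blood progenitors whose human counterparts are tied to acute leukemia: Tal1, Lyl1, Lmo2, Runx1, Erg, Sox4, Mn1 and Id2. They were chosen by name, and every probe set that the array annotation assigned to a single gene among them was taken. This gave 23 probe sets, of 34842 on the array that named 1 gene. Runx1 had 6 of them, Sox4 8, Id2 3, Erg 2, and Tal1, Lyl1, Lmo2 and Mn1 1 each. Probe sets were tested if 3 or more arrays gave them a signal over that array's 40th percentile, which held for 22 member probe sets and for 28025 probe sets in all. The exception was Sox4 probe set 1443778_at, which reached 5.04 at most and passed that percentile on 0 of 57 arrays. The study measured RNA on Affymetrix mouse arrays, whose deposited values are log2 signals, so that a difference of 1 is a change of 2-fold.

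CA10 mice express a CALM-AF10 fusion, and NHD13 mice a NUP98-HOXD13 fusion, each under the vav promoter, which is active throughout blood cells. Leukemic spleen came from CA10 mice (6 arrays) and NHD13 mice (6) killed when clinical signs of leukemia appeared, and was set beside spleen of CA10 mice without clinical signs (5) and of wild-type mice (2). Marrow depleted of mature blood cells, called lineage-negative, was measured on 3 arrays for each of the 2 transgenes and for wild type. There were 3 CA10, 3 NHD13, 3 C57B6 wild-type and 6 other wild-type arrays of whole marrow, and 4 CA10, 3 NHD13 and 7 wild-type arrays of thymus. Transgenic marrow and thymus were taken from mice without clinical signs, wild-type tissue came from littermates of like age where possible, and no mouse was on a treatment. The strain of the groups other than C57B6 and the ages are not in the labels. Nor do they state that every array had a mouse of its own, so a p-value here covers only the spread among arrays, which may be technical. The number of arrays limits the precision.

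The basic helix-loop-helix proteins TAL1 and LYL1 bind DNA as dimers with E proteins such as TCF3. LMO2 does not bind DNA but bridges such dimers to LDB1 and GATA factors, and the complex is needed to form blood stem cells and red cells. RUNX1 pairs with CBFB, ERG is an ETS factor, and both act in blood stem cells. SOX4 is an HMG-box factor of early lymphocytes and other progenitors, and MN1 is a transcriptional coregulator that drives myeloid leukemia when forced on. ID2 has a helix-loop-helix domain without a DNA-binding part, ties up E proteins, and is needed by NK cells and dendritic cells. Forced expression of TAL1, LYL1 or LMO2 in thymocytes leads to T cell leukemia in humans and mice.

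Promoters are shown for Tal1 and Lyl1, whose levels moved together across tissues, and for Runx1 and Erg, which rose in NHD13 leukemic spleen. RefSeq windows on GRCm38.p6 run from 250 bases before to 50 bases after an annotated start, and 10 such windows were at hand for 6 of the 8 genes. Both strands were searched for the RUNX motif TGTGGT, the GATA motif AGATAA and the ETS motif CCGGAA, and matches are in capitals. The E-box CANNTG, to which TAL1 and LYL1 dimers bind, was counted as well but is not in capitals. None of the capital matches overlaps another. The 5 windows with a RUNX, GATA or ETS match read as follows, each on the strand of its gene.
Tal1 start 1, chr4:115056176-115056475, plus strand: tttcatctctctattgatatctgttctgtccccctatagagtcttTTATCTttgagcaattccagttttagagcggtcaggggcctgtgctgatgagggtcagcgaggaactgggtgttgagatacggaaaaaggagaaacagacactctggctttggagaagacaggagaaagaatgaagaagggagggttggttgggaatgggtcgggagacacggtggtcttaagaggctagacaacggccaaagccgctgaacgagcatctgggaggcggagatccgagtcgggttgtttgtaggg
Lyl1, chr8:84701207-84701506, plus strand: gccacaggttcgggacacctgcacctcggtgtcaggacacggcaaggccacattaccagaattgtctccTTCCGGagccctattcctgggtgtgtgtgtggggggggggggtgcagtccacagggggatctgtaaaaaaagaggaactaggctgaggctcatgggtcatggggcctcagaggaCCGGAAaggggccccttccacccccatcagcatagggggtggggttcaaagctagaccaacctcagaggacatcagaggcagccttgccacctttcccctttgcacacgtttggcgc
Runx1 start 1, chr16:92697280-92697579, minus strand: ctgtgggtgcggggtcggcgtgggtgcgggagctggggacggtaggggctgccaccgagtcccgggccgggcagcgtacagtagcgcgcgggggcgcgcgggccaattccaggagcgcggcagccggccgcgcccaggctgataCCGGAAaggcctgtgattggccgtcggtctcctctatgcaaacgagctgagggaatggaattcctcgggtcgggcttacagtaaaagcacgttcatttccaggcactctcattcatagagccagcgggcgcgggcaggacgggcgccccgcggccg
Runx1 start 2, chr16:92826025-92826324, minus strand: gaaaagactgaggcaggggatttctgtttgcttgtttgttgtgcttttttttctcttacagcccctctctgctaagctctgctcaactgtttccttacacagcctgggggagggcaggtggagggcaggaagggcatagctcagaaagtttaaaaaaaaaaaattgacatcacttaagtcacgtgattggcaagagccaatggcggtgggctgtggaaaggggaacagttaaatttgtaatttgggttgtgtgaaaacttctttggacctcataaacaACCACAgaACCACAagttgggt
Erg start 1, chr16:95459299-95459598, minus strand: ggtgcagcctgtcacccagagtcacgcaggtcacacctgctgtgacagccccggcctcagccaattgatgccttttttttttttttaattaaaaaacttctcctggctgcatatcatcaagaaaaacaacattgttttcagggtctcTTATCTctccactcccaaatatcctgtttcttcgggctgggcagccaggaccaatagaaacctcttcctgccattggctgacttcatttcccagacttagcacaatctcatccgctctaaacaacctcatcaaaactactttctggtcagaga
The capitals mark 1 GATA match in the Tal1 window, 2 ETS matches in the Lyl1 window, 1 ETS match at Runx1 start 1, 2 RUNX matches side by side at Runx1 start 2 and 1 GATA match at Erg start 1. Over 32851 promoter windows of this length, 16.8% held the RUNX motif, 11.2% the GATA motif, 14.9% the ETS motif and 72.3% an E-box. The windows of Tal1 start 2, Erg starts 2 and 3, Sox4 and Id2 held none of the RUNX, GATA and ETS letters. An E-box was found in the windows of Tal1 start 1, Lyl1, Runx1 start 2, Erg start 1, Sox4 and Id2.

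Few members passed the test in the 13 comparisons. Id2 was higher in CA10 leukemic spleen, Runx1 and Erg were higher in NHD13 leukemic spleen, Mn1 was higher in NHD13 whole marrow, and no member passed between transgenic and wild-type mice in lineage-negative marrow or thymus. Whether the transgene effects differ between healthy tissues was tested as well, and 0 of 22 member probe sets passed for either transgene. In CA10 leukemic against CA10 healthy spleen 1 of 22 member probe sets passed, where 6.26% of all probe sets did. In CA10 leukemic against wild-type spleen 1 of 22 passed, beside 7.08% of all. In NHD13 leukemic against wild-type spleen 3 of 22 passed, beside 31.2% of all, and between CA10 and NHD13 leukemic spleen 5 of 22 passed, beside 27.4%. In NHD13 against wild-type whole marrow 1 of 22 passed, beside 0.814% of all. In C57B6 against other wild-type whole marrow 6 of 22 passed, beside 19.6%, and in lineage-negative against whole marrow of wild-type mice 2 of 22 passed, beside 24%. The members' share was below or near that of all probe sets in each spleen comparison, so their number is not a result about the members as a group. With only 2 wild-type spleens, arrays that do not overlap were common: 7 of 22 member probe sets in CA10 leukemic against wild-type spleen (32% of all) and 7 of 22 in NHD13 leukemic against wild-type spleen (41.3% of all).

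**Figure D1:**
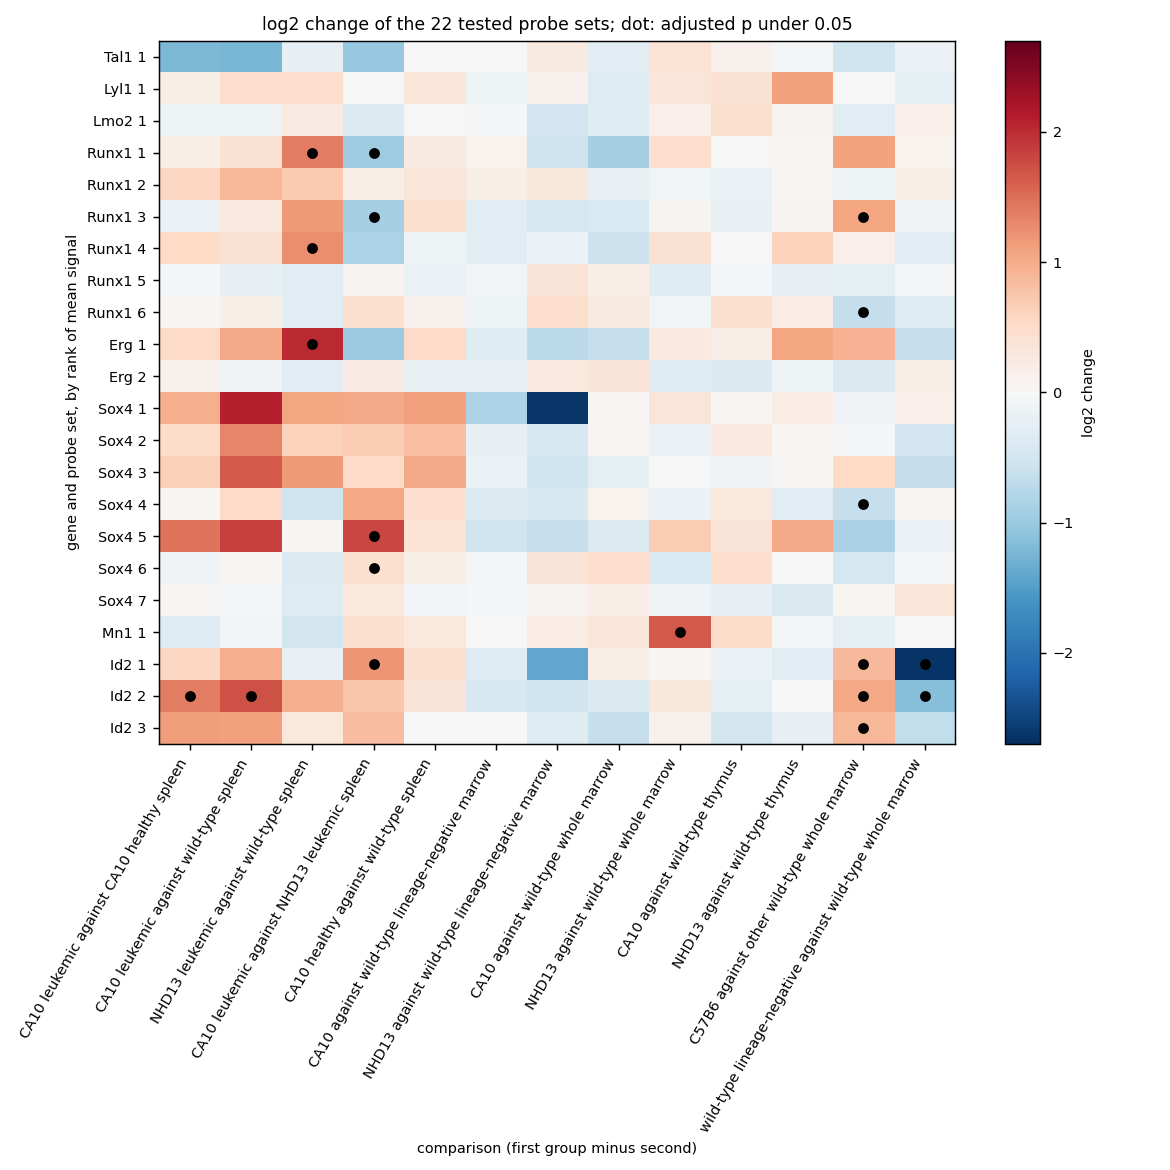
Log2 changes of the 22 tested member probe sets (rows; the number after a gene is the rank of the probe set by mean signal) in 13 comparisons (columns). Red is higher and blue lower in the group named first, and dots mark changes past an adjusted p of 0.05; the Erg dot stands in NHD13 leukemic against wild-type spleen and the Mn1 dot in NHD13 whole marrow.

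No member passed in 6 comparisons. These were CA10 healthy against wild-type spleen (0% of all probe sets called), CA10 against wild-type lineage-negative marrow (0%), NHD13 against wild-type lineage-negative marrow (0.0214%), CA10 against wild-type whole marrow (0%), CA10 against wild-type thymus (0%) and NHD13 against wild-type thymus (0.589%). By limma at an unadjusted p under 0.05 these held 0, 0, 2, 2, 2 and 1 of the 22 member probe sets in that order, beside 2.41%, 0.457%, 2.85%, 15.6%, 4.09% and 11.3% of all probe sets. The median change of the member probe sets was 0.16 in CA10 leukemic against CA10 healthy spleen (0.01 over all probe sets), 0.45 in CA10 leukemic against wild-type spleen (0.02) and 0.26 in NHD13 leukemic against wild-type spleen (0.03). It was -0.15 in CA10 (all: -0.02) and -0.38 in NHD13 lineage-negative marrow (all: -0.01), and in whole marrow and thymus of the transgenic mice it lay between -0.23 and 0.10. The 2 comparisons with wild-type spleen share their controls, as do those of the 2 transgenes in each other tissue.

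The arrays fell into 2 sets that the labels do not name. A narrow set of 10 had a 75th percentile of signal between 6.90 and 7.15, and the wide set of the remaining arrays had one between 7.26 and 7.72. The narrow set was made up of the 3 CA10 whole marrows, other wild-type whole marrows 4 to 6, replicate 3 of every lineage-negative group, and replicate 6 of wild-type thymus. CA10 thymus 3 and wild-type thymus 2 correlated least with the other thymuses (median r 0.904 and 0.914 over probe sets), and the signal at the 3' end of Gapdh exceeded that at the 5' end most in NHD13 lineage-negative marrow 3, by 2.95. Marker lists fitted the labelled tissues: the T cell list averaged 10.72, 9.52 and 11.10 in CA10, NHD13 and wild-type thymus, and the neutrophil list was lower in lineage-negative than in whole marrow of wild-type mice for 8 of 8 genes (6.54 against 13.12). The erythroid list, by contrast, averaged 10.14 in wild-type lineage-negative and 11.64 in wild-type whole marrow. All tissue was measured in bulk, where fewer cells of a type and less RNA per cell cannot be told apart.

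Tal1, Lyl1 and Lmo2, whose proteins take part in LMO2 complexes, were high in every spleen and marrow group and low in every thymus group. Tal1 averaged 5.40 ± 0.44 in CA10 (SD, n = 4), 5.25 ± 0.24 in NHD13 (n = 3) and 5.27 ± 0.52 in wild-type thymus (n = 7), while the other 11 groups averaged 9.16 to 11.29. Lyl1 averaged 6.56 ± 0.73, 7.27 ± 0.98 and 6.15 ± 0.77 in CA10, NHD13 and wild-type thymus, and 9.55 to 10.26 in the other groups. Lmo2 averaged 7.84 ± 0.89, 7.47 ± 0.81 and 7.40 ± 0.91 in the same thymus groups, and 10.90 to 11.57 elsewhere. Every thymus lay below every other array for Lyl1 (at most 8.14, against 9.18 or more) and for Lmo2 (at most 9.43, against 9.85 or more), and the ranges of neighbouring groups overlapped everywhere else in the order of levels. For Tal1 the ranges overlapped at that step too, because CA10 leukemic spleen 2 stood at 5.98 and the thymuses reached 6.22. Over the 14 group means Tal1 followed Lmo2 with r = 0.985 and Lyl1 with r = 0.947, and Lyl1 followed Lmo2 with r = 0.965; these means share arrays and rest largely on the gap between thymus and the other tissues.

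**Figure D2:**
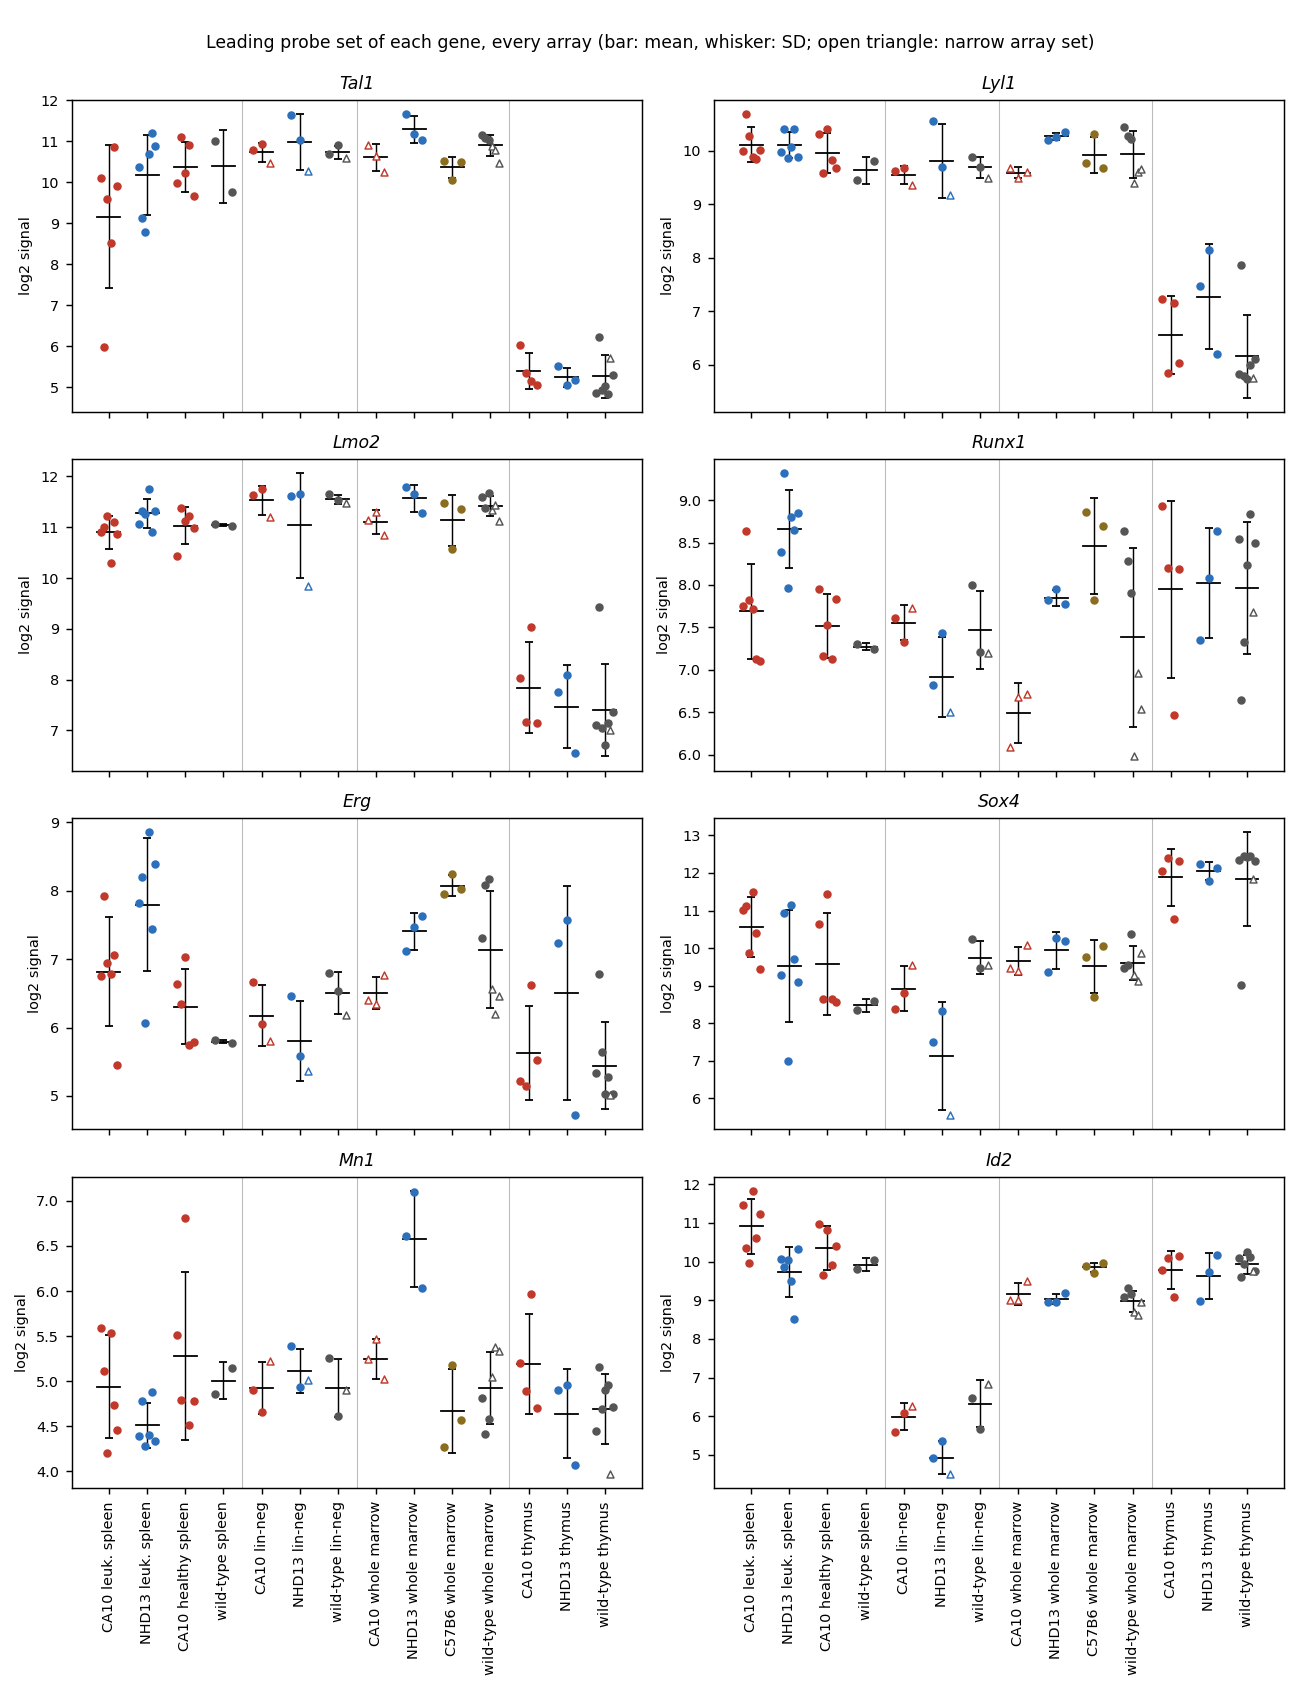
Log2 signal of each member's leading probe set on every array, by group; bars are group means, whiskers SDs, circles arrays of the wide set and open triangles arrays of the narrow set. Tal1, Lyl1 and Lmo2 lie lowest in the 3 thymus groups, Sox4 lies highest there, and Id2 lies lowest in the 3 lineage-negative groups.

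None of the 3 genes passed the test in any comparison. In spleen, Tal1 had a signal of 10.11, 5.98, 9.60, 8.51, 10.86 and 9.92 on the 6 CA10 leukemic arrays, against 9.98, 11.11, 10.23, 10.92 and 9.68 on the CA10 healthy arrays. CA10 leukemic spleens 2, 3 and 4 lay below every healthy spleen, array 3 by little and array 2 by far, and the other 3 lay within their range. The change of -1.22 ± 0.68 (SE) had an adjusted p of 0.301, and it was -0.58 without CA10 leukemic spleen 2. The erythroid marker list, 7 genes such as the red cell regulator Klf1, was lowest on the same arrays, at 6.30 on CA10 leukemic spleen 2 and 7.53 on CA10 leukemic spleen 4. It ranged from 6.30 to 11.01 in CA10 leukemic and from 8.94 to 11.48 in CA10 healthy spleen, with 0 of 7 genes called, and its part in the Tal1 values was not tested.

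**Figure D3:**
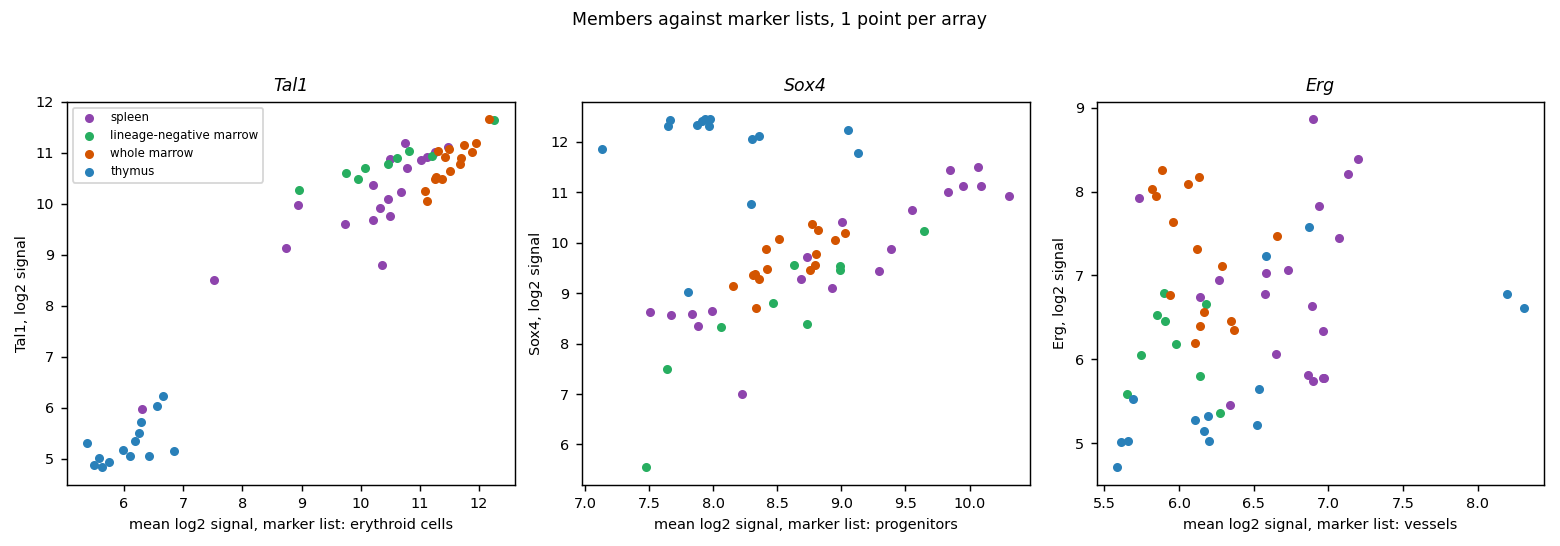
Tal1, Sox4 and Erg (y, log2 signal of the leading probe set) against the mean log2 signal of the erythroid, progenitor and vessel marker lists (x) on each array, coloured by tissue. CA10 leukemic spleen 2, with an erythroid list at 6.30 and Tal1 at 5.98, lies beside the thymuses.

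Lyl1 was steadier than Tal1 in spleen. It stood at 9.98, 10.68, 10.28, 9.88, 9.84 and 10.01 in CA10 leukemic spleen and at 9.97, 10.41, 9.87, 10.07, 10.41 and 9.89 in NHD13 leukemic spleen, against 9.46 and 9.80 on the wild-type arrays. All 12 leukemic spleens lay above both wild-type spleens, but the changes of 0.48 in CA10 and 0.47 in NHD13 leukemic spleen had adjusted p-values of 0.244 and 0.156. For Lmo2, CA10 leukemic spleen ran from 10.30 to 11.22 and NHD13 leukemic spleen from 10.91 to 11.76, against 11.06 and 11.03 in wild-type spleen, and both pairs of groups overlapped. In NHD13 thymus Lyl1 stood at 7.46, 8.14 and 6.20, and in wild-type thymus it ran from 5.73 to 7.87 with a median of 5.83. The NHD13 arrays reached above the wild-type ones but overlapped with wild-type thymus 2, which was at 7.87; the change was 1.11 ± 0.50 (adjusted p = 0.419), and 1.40 with an adjusted p of 0.0576 without CA10 thymus 3 and wild-type thymus 2. The progenitor list was higher in NHD13 than in wild-type thymus for 1 of 6 genes, with a mean of 8.85 against 7.72, and its part in the Lyl1 values was not tested.

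By their group means, the genes most like Tal1 among 14238 genes were Rhag (r = 0.994), a red cell membrane gene that also stands in the erythroid list, Cldn13 (0.994) and Mfsd2b (0.993), which exports sphingosine 1-phosphate from red cells. Those most like Lyl1 were Tuba4a (0.982), Nfe2 (0.972), a factor of red cells and megakaryocytes, and Lmo2 (0.965). Those most like Lmo2 were Pck2 (0.986), Tal1 (0.985) and the carbonic anhydrase gene Car2 (0.983). Each r is over 14 group means and describes these arrays only.

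Partners in LMO2 complexes were followed as a list of 12 tested genes. It held LDB1, the E proteins, GATA factors, the LDB1-binding Ssbp genes, Cbfa2t3, Lmo1 and Lmo4. In NHD13 leukemic against wild-type spleen 3 rose and 2 fell, beside 31.2% of all probe sets called. Lmo4, a relative of Lmo2, averaged 9.30 in NHD13 leukemic and 7.36 in wild-type spleen (change 1.93, adjusted p = 0.00099), and Gata3, a T cell regulator, averaged 4.14 in NHD13 leukemic and 5.41 in wild-type spleen (change -1.26, adjusted p = 0.0287). In CA10 leukemic against wild-type spleen 2 rose and 0 fell (7.08% of all called), led by Ssbp2, an LDB1-binding gene (9.13, against 8.07 in wild-type spleen, adjusted p = 0.0262), and against CA10 healthy spleen 0 rose and 0 fell (6.26% of all). Between the leukemias 1 was higher and 2 were lower in CA10 (27.4% of all), led by Gata3 (5.10 in CA10, 4.14 in NHD13, adjusted p = 0.0225) and by Gata2, a factor of progenitors and mast cells (7.15 in CA10, 8.73 in NHD13, adjusted p = 0.00645). The T cell list was lower in NHD13 leukemic than in wild-type spleen for 6 of 7 genes (6.13 against 8.45), and its part in the Gata3 values was not tested. Gata3 was dim: its means of 4.14, 5.41 and 5.10 lay below the median signals of the arrays in these groups, which ran from 5.44 to 5.64.

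In healthy transgenic tissue 1 gene of the list passed in NHD13 whole marrow (0.814% of all called) and 1 in NHD13 thymus (0.589% of all). Ssbp2 rose in NHD13 whole marrow (9.33 against 8.38 in wild type, adjusted p = 0.0175), and the E protein gene Tcf4 rose in NHD13 thymus (10.41 against 9.04 in wild type, adjusted p = 0.0359). No other gene of the list passed in marrow or thymus of either transgene. In wild-type mice, lineage-negative against whole marrow gave 4 higher and 1 lower (24% of all called), with Ldb1 at 9.78 against 8.55 and Lmo4 at 7.42 against 9.12.

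Runx1 was higher in NHD13 leukemic spleen. The leading probe set, 1422864_at, stood at 8.39, 9.32, 7.96, 8.80, 8.65 and 8.85 on the NHD13 leukemic arrays and at 7.75, 8.64, 7.82, 7.72, 7.13 and 7.11 on the CA10 leukemic arrays, against 7.30 and 7.24 on the wild-type arrays. Every NHD13 leukemic spleen lay above both wild-type spleens, while the CA10 leukemic arrays lay on both sides of them. Runx1 rose by 1.39 ± 0.36 log2 units in NHD13 leukemic against wild-type spleen (SE, n = 6 and 2, 2.62-fold, adjusted p = 0.00703), and was lower by 0.97 ± 0.25 in CA10 than in NHD13 leukemic spleen (change -0.97, n = 6 each, adjusted p = 0.00886). In CA10 leukemic against wild-type spleen the change was 0.42 ± 0.36 (adjusted p = 0.507). The call against wild type was lost without either wild-type array (adjusted p up to 0.0710), and the call between the leukemias held with each of the 12 arrays left out.

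The other Runx1 probe sets were divided. Probe set 1422865_at ran from 6.67 to 8.12 with a median of 7.39 in NHD13 leukemic spleen, against 6.20 and 5.96 in wild-type spleen, without overlap (change 1.26 ± 0.45, 2.40-fold, adjusted p = 0.0398). That call was lost without NHD13 leukemic spleens 2, 4 or 6 or without either wild-type spleen (adjusted p up to 0.225). Probe sets 1440878_at and 1427650_a_at also lay higher on every NHD13 leukemic array than on the wild-type arrays, with changes of 1.16 and 0.71, but did not pass (adjusted p = 0.0616 and 0.0756). Probe sets 1452531_at and 1452530_a_at had changes of -0.30 and -0.28 and did not pass either. Between the leukemias 1440878_at was also lower in CA10 (change -0.90 ± 0.32, adjusted p = 0.0457), a call that was lost in 8 of 12 cases with 1 array left out. The remaining Runx1 probe sets were not called there and differed in sign. On average 1422865_at was lower in CA10, while 1427650_a_at, 1452531_at and 1452530_a_at were higher in CA10. On 1452530_a_at CA10 leukemic spleen ran from 5.87 to 6.53 and NHD13 leukemic spleen from 5.52 to 6.27. Over the 14 group means, 1440878_at and 1422865_at followed the leading probe set with r of 0.90 and 0.76, and 1427650_a_at, 1452531_at and 1452530_a_at did not (r = -0.21, -0.74 and -0.72).

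**Figure D4:**
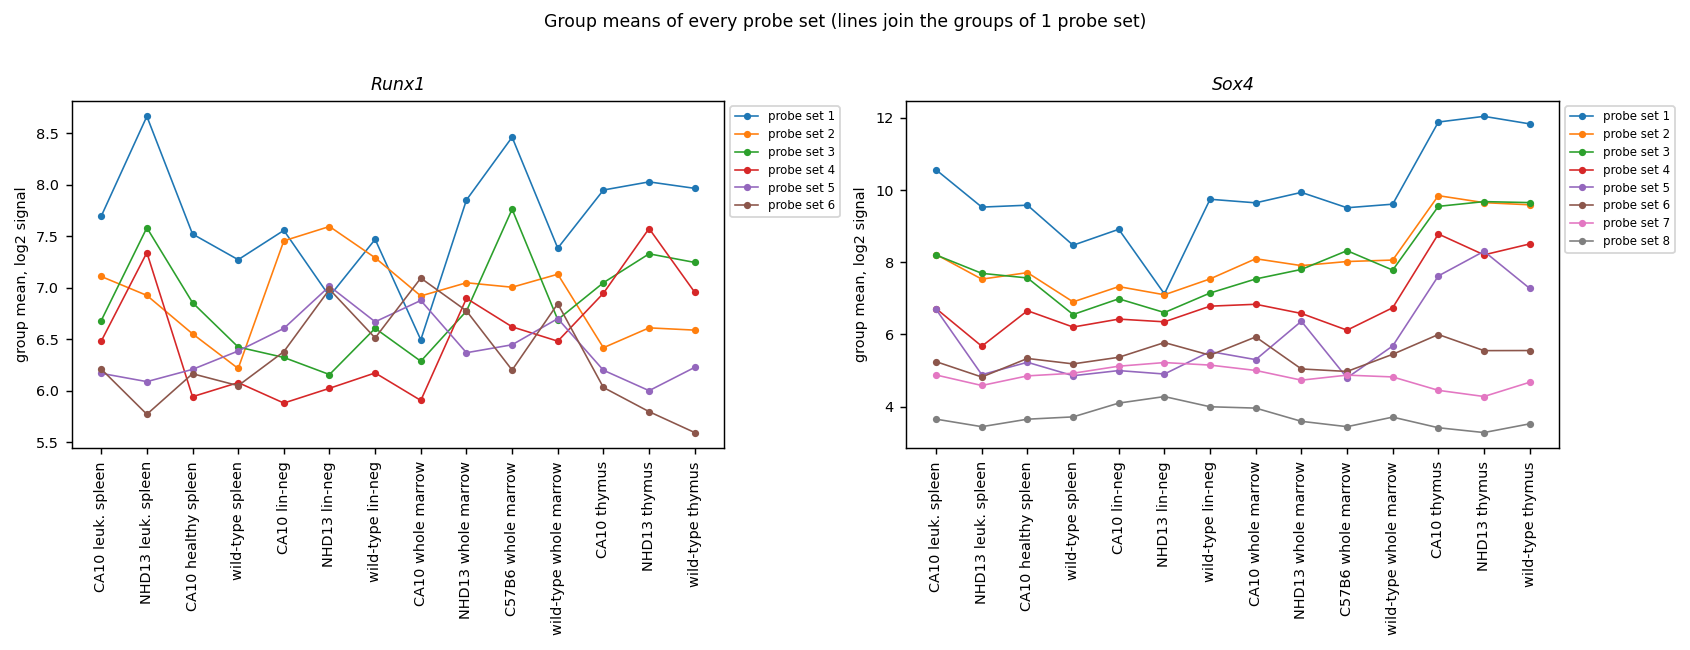
Group means (log2 signal) of all 6 Runx1 and all 8 Sox4 probe sets over the 14 groups, numbered by mean signal; lines only join the means of a probe set. Runx1 probe sets 1 and 3 peak in NHD13 leukemic spleen and C57B6 marrow, and Sox4 probe sets 1 to 5 are highest in the 3 thymus groups.

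Erg was the member with the largest change that passed in a leukemic spleen. Probe set 1440244_at stood at 7.83, 8.21, 6.06, 8.86, 7.44 and 8.39 on the NHD13 leukemic arrays, against 5.81 and 5.78 on the wild-type arrays. NHD13 leukemic spleen 3, at 6.06, lay just above the wild-type arrays and the other 5 lay at 7.44 or more. Erg rose by 2.00 ± 0.59 log2 units (SE, n = 6 and 2, 4.01-fold, adjusted p = 0.0159), a call that was lost without either wild-type array (adjusted p up to 0.109). In CA10 leukemic spleen it ran from 5.46 to 7.92 with a median of 6.86, on both sides of the wild-type arrays, and the change of 1.02 was not called (adjusted p = 0.305). The difference between the leukemias, -0.98 ± 0.42 for CA10 minus NHD13, was not called (adjusted p = 0.0882), so the rise is not shown to be larger in NHD13. The other Erg probe set, 1425370_a_at, had group means of 4.68 to 6.07 that did not follow the leading ones (r = -0.01), and its change in NHD13 leukemic spleen was -0.30 (adjusted p = 0.165).

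ERG is also made by the cells that line vessels, and the vessel list averaged 6.98 (6.65 to 7.20) in NHD13 leukemic and 6.92 (6.86 to 6.97) in wild-type spleen, with Cdh5 the 1 of 8 genes called higher. The progenitor list averaged 9.14 (8.22 to 10.31) in NHD13 leukemic and 7.86 (7.83 to 7.88) in wild-type spleen, with Myb the 1 of 6 called higher. All 7 B cell genes were lower in NHD13 leukemic spleen, with a mean of 5.65 against 11.64 in wild-type spleen. The part of progenitors and of B cells in the Runx1 and Erg values was not tested.

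Runx1 and Erg were also high in C57B6 whole marrow, and the strain of the NHD13 leukemic mice is not in the labels. Runx1 stood at 8.86, 7.82 and 8.70 in C57B6 marrow, against 8.64, 8.29, 7.91, 5.98, 6.96 and 6.53 in the other wild-type marrows. Erg stood at 7.95, 8.25 and 8.03 in C57B6 marrow, against 7.32, 8.09, 8.17, 6.57, 6.20 and 6.46 in the other wild-type marrows. For both genes the C57B6 arrays lay within or near the range of wild-type marrows 1 to 3 and above marrows 4 to 6, which belong to the narrow array set. The C57B6 difference of the leading Runx1 probe set was 1.08 over all 6 other marrows (adjusted p = 0.109), 0.18 over marrows 1 to 3 and 1.97 over marrows 4 to 6; for Erg it was 0.94 (adjusted p = 0.0822), 0.22 and 1.67.

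With the C57B6 difference over all 6 marrows subtracted, the changes in NHD13 leukemic against wild-type spleen were 0.31 for Runx1 probe set 1422864_at, 1.12 for 1422865_at and 1.06 for Erg, and none was called (adjusted p = 0.860, 0.375 and 0.464). With the difference over marrows 1 to 3, which are of the same array set as every spleen, they were 1.21, 1.84 and 1.79, again with none called (adjusted p = 0.273, 0.108 and 0.171). Each such subtraction, here and below, adds the spread of the marrow groups and uses a model over all tissues. A call lost with it therefore does not by itself show a smaller change. Between the leukemias the leading Runx1 probe set was at 0.11 with the difference over all 6 marrows subtracted, the opposite sign, and at -0.79 with that over marrows 1 to 3 (adjusted p = 0.954 and 0.581).

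**Figure D5:**
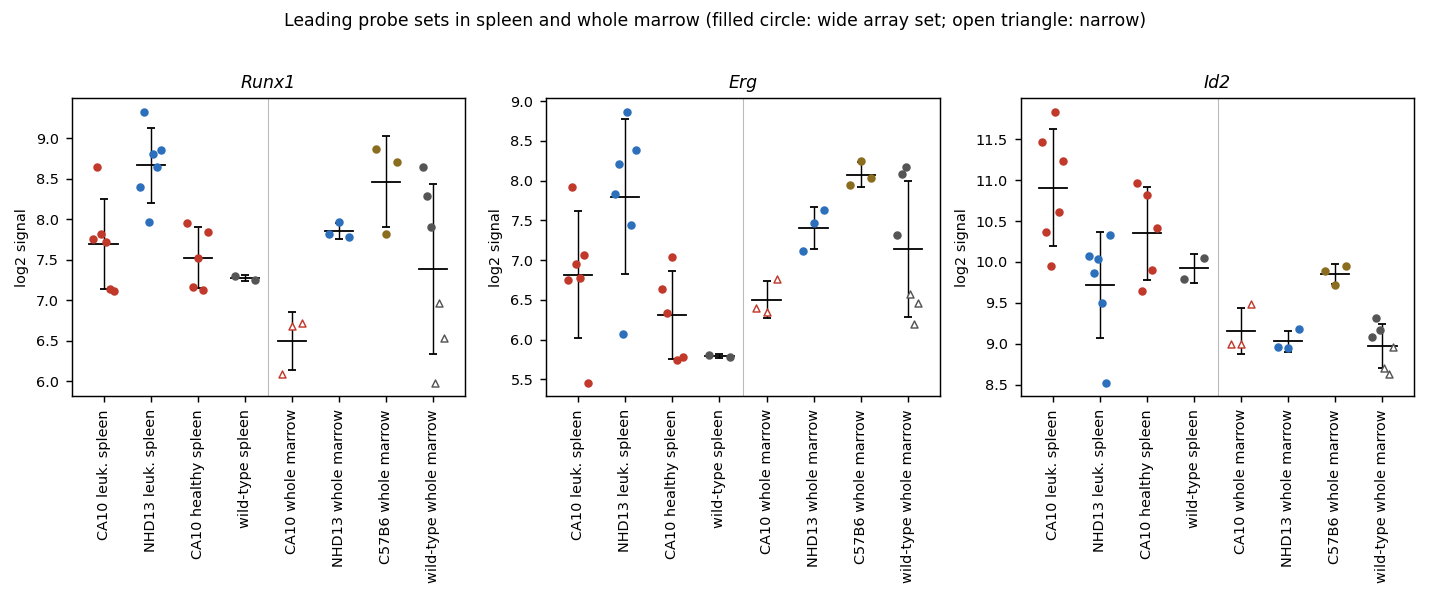
Log2 signal of the leading Runx1, Erg and Id2 probe sets on each spleen and whole-marrow array; bars are means, whiskers SDs, and open triangles are arrays of the narrow set. For Runx1 and Erg the narrow-set marrows (CA10, and wild-type 4 to 6) lie below wild-type marrows 1 to 3.

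In CA10 whole marrow Runx1 averaged 6.49 ± 0.35 (n = 3), against 7.38 ± 1.05 in the 6 wild-type marrows, and was not called. Wild-type marrows 4 to 6, of the same array set as the CA10 marrows, also averaged 6.49, and marrows 1 to 3 averaged 8.28. Against marrows 4 to 6 alone 0 of 22 member probe sets were called, and against marrows 1 to 3 alone 11 were, beside 1 and 15082 of all probe sets. In thymus Runx1 averaged 7.95 ± 1.04 in CA10, 8.03 ± 0.65 in NHD13 and 7.96 ± 0.78 in wild-type mice, and Erg averaged 5.63 ± 0.68 in CA10, 6.51 ± 1.56 in NHD13 and 5.44 ± 0.63 in wild-type mice. Neighbouring groups overlapped in the whole order of levels of both genes. The genes most like Runx1 by group means were Stx18 (r = 0.960), Ddx42 (0.944) and Mapkapk5 (0.933). Like Runx1, these genes were lowest in CA10 whole marrow, whose arrays all belong to the narrow set. The part of the array set in this likeness was not tested. Those most like Erg were Arhgef39 (0.954), Rab44 (0.950) and Klf11 (0.948).

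Sox4 was highest in thymus, where its leading probe set 1433575_at averaged 11.89 ± 0.76 in CA10, 12.05 ± 0.24 in NHD13 and 11.84 ± 1.26 in wild-type mice. It was lowest in NHD13 lineage-negative marrow, at 7.12 ± 1.43, followed in the order of levels by wild-type spleen at 8.47 ± 0.17. The arrays of these groups only just did not overlap (at most 8.33, against 8.35 or more), and their SD intervals did overlap. The lowest array of 1419156_at was also an NHD13 lineage-negative one, but those of 1419155_a_at, 1449370_at and 1419157_at were not. Across the 14 group means the leading probe set ran against Tal1 (r = -0.846), Lmo2 (-0.791) and Lyl1 (-0.750). Sox4 probe sets 1419155_a_at, 1419156_at, 1419157_at and 1449370_at followed the leading one (r = 0.93, 0.93, 0.89 and 0.82), 1455867_at did not (r = 0.20), and the dim 1458332_x_at and the untested 1443778_at ran against it (r = -0.79 and -0.74). The most similar genes were Papss1 (r = 0.932), Eif1b (0.917) and Ndufa1 (0.917), each of them also lowest in NHD13 lineage-negative marrow.

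In spleen Sox4 was high in some leukemic arrays of each kind. On the leading probe set CA10 leukemic spleen stood at 11.01, 11.13, 9.87, 11.50, 10.41 and 9.44 and NHD13 leukemic spleen at 9.29, 10.93, 7.00, 11.13, 9.72 and 9.10, against 8.35 and 8.59 in wild-type spleen. All CA10 leukemic arrays lay above the wild-type arrays, while NHD13 leukemic spleen 3 lay below them. The CA10 change of 2.09 ± 0.90 (4.25-fold) was not called (adjusted p = 0.164), nor was the NHD13 change of 1.06 (adjusted p = 0.395). CA10 healthy spleen stood at 10.64, 8.64, 11.43, 8.64 and 8.56. Its arrays 1 and 3 lay as high as the leukemic ones and the other 3 near the wild-type level. On those 2 arrays the progenitor list was at 9.55 and 9.85, against 7.51 to 7.99 on the other 3, and its part in the Sox4 values was not tested.

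A difference between the leukemias was called on 2 weaker Sox4 probe sets. On 1419157_at CA10 leukemic spleen ran from 5.78 to 7.55 with a median of 6.80 and NHD13 leukemic spleen from 4.04 to 6.10 with a median of 4.50. The ranges overlapped only between 5.78 and 6.10, and Sox4 was higher in CA10 by 1.81 ± 0.43 log2 units (n = 6 each, 3.50-fold, adjusted p = 0.00524). On 1455867_at the change was 0.42 ± 0.12 (adjusted p = 0.0120), from medians of 5.27 in CA10 and 4.83 in NHD13 leukemic spleen, with overlap. Both calls held with each of 12 arrays left out. On the leading probe set the change was 1.03 ± 0.64 (adjusted p = 0.24), and on 1419155_a_at, 1419156_at and 1449370_at it was 0.68, 0.51 and 1.04, none called. With the C57B6 difference subtracted the 1419157_at change was 0.93 over all other marrows and 0.84 over marrows 1 to 3 (adjusted p = 0.572 and 0.722), and that of 1455867_at was -0.050, the opposite sign, and 0.28 (adjusted p = 0.954 and 0.720).

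In lineage-negative marrow the leading Sox4 probe set stood at 7.49, 8.33 and 5.55 in NHD13 mice and 8.39, 8.80 and 9.56 in CA10 mice. In wild-type mice it stood at 10.24, 9.46 and 9.54. Every NHD13 array lay below every wild-type array, and CA10 array 3 lay within the wild-type range. The NHD13 change of -2.62 ± 0.64 had an unadjusted p of 0.00243 and an adjusted p of 0.651, so it was not called. It was -1.84 (adjusted p = 0.271) without NHD13 array 3, the one with the largest Gapdh difference. Other Sox4 probe sets differed by less. On 1419156_at NHD13 ran from 6.02 to 6.90, below wild type at 7.05 to 7.21. On 1449370_at it ran from 6.15 to 6.53, below wild type at 6.61 to 7.03. With the leading one, these were the Sox4 probe sets whose groups did not overlap. On 1419155_a_at and 1419157_at the groups overlapped. NHD13 array 3 stood there at 7.62 and 5.40, within the wild-type ranges of 7.39 to 7.74 and 5.21 to 5.70. In this comparison 5 of 22 member probe sets had groups that did not overlap, beside 6.46% of all probe sets. The progenitor list averaged 7.72 (7.48 to 8.06) in NHD13 and 9.21 (8.99 to 9.65) in wild-type lineage-negative marrow, with 0 of 6 genes called, and its part in the Sox4 values was not tested. Wild-type thymus 2 and CA10 thymus 3, which stood apart, had the lowest Sox4 of their groups, at 9.03 and 10.77, and without them no member passed in thymus either.

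Mn1 was low in most groups and rose in NHD13 whole marrow. Its signal lay above the 40th percentile on 19 of 57 arrays. In whole marrow it stood at 6.61, 7.09 and 6.03 on the NHD13 arrays, against 4.81, 4.41, 4.58, 5.04, 5.39 and 5.33 on the wild-type arrays. Every NHD13 marrow lay above every wild-type marrow. Mn1 rose by 1.65 ± 0.27 log2 units (SE, n = 3 and 6, 3.14-fold, adjusted p = 0.00503). The rise was 1.98 against wild-type marrows 1 to 3, 1.33 against marrows 4 to 6 and 1.91 against the C57B6 marrows, called in each case (adjusted p = 0.00283, 0.00149 and 0.000569). Leaving out 1 array gave 1.39 to 1.93, and the call was lost only without NHD13 marrow 2 (adjusted p = 0.0576).

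The rise was seen in NHD13 whole marrow among the 4 NHD13 tissues, but a test of unequal NHD13 effect over the healthy tissues did not pass for Mn1 after adjustment (limma F test, adjusted p = 0.117; 0 of 22 members called, beside 0.564% of all). NHD13 lineage-negative marrow averaged 5.12 ± 0.24, against 4.92 ± 0.32 in wild type, NHD13 thymus averaged 4.64 ± 0.50, against 4.69 ± 0.39 in wild type, and NHD13 leukemic spleen averaged 4.51 ± 0.25, against 5.01 ± 0.21 in wild type. The same test for the CA10 effect called 0 of 22 members and 0% of all. Among 11 tested partners and relatives of Mn1 and the other members, 1 rose and 0 fell in NHD13 whole marrow, beside 0.814% of all probe sets called. It was Mecom, a zinc finger gene of stem cells and leukemia, with a change of 1.25 (6.27 in NHD13, 5.02 in wild type, adjusted p = 0.0123). The progenitor list averaged 8.72 in NHD13 and 8.54 in wild-type whole marrow with 0 of 6 called, all 7 B cell genes were lower (6.14 against 8.11), and the megakaryocyte list was higher for Itga2b, 1 of 6 genes. The part of these cells in the Mn1 values was not tested.

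Single arrays of other groups were also high. CA10 healthy spleen 3 had an Mn1 signal of 6.81 when the other 4 lay between 4.52 and 5.52, and CA10 thymus 3 one of 5.97 when the other 3 lay between 4.70 and 5.20. CA10 healthy spleen 3 was also the healthy spleen with the highest Sox4 and the highest progenitor list. Group means without NHD13 whole marrow lay between 4.51 and 5.28, and neighbouring groups overlapped throughout the order. The genes most like Mn1 by group means were Col8a1 (r = 0.870), Myot (0.778) and Rfk (0.777).

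Id2 was highest in CA10 leukemic spleen and lowest in lineage-negative marrow. On probe set 1422537_a_at, CA10 leukemic spleen stood at 10.80, 9.70, 9.24, 11.48, 9.56 and 11.20, against 8.81, 8.87, 9.34, 8.78 and 8.99 in CA10 healthy spleen and 8.68 and 8.56 in wild-type spleen. Arrays 1, 4 and 6 stood well above all controls, and only CA10 leukemic spleen 3 overlapped with a healthy spleen. Id2 rose by 1.37 ± 0.35 log2 units against CA10 healthy spleen (SE, n = 6 and 5, 2.59-fold, adjusted p = 0.0287) and by 1.71 ± 0.47 against wild-type spleen (n = 6 and 2, 3.28-fold, adjusted p = 0.0366). The call against CA10 healthy spleen was lost without CA10 leukemic spleen 1 or 6 or healthy spleen 2, 4 or 5 (change 1.14 to 1.59, adjusted p up to 0.0772). It was also lost with only these 2 groups in the model (adjusted p = 0.0586) and with the Gapdh difference as a covariate (change 1.19, adjusted p = 0.0961), a difference that was 2.09 on CA10 healthy spleen 1 and 0.14 to 0.58 on the other healthy spleens.

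The comparison of Id2 with wild-type spleen lost its call without CA10 leukemic spleen 1 or 6 or either wild-type array (adjusted p up to 0.264). The leading Id2 probe set, 1435176_a_at, stood at 11.47, 10.36, 9.95, 11.83, 10.61 and 11.23 in CA10 leukemic spleen, against 10.96, 9.65, 10.82, 9.91 and 10.42 in CA10 healthy spleen. Arrays 1, 4 and 6 were again the highest, but the groups overlapped and the change of 0.56 ± 0.36 was not called (adjusted p = 0.381). The third Id2 probe set, 1453596_at, ran from 5.51 to 8.55 in CA10 leukemic spleen, and its change against CA10 healthy spleen was 1.13 ± 0.45 (adjusted p = 0.143). Between the leukemias only the leading one of the 3 probe sets was called. NHD13 leukemic spleen stood at 10.08, 9.86, 10.04, 9.49, 8.52 and 10.33, and arrays 2, 4 and 5 of them lay below all 6 CA10 leukemic arrays while the other 3 lay above CA10 leukemic spleen 3 alone. Id2 was higher in CA10 by 1.19 ± 0.34 (n = 6 each, 2.28-fold, adjusted p = 0.0156, called with each of 12 arrays left out). On 1422537_a_at this change was 0.76 (adjusted p = 0.0964), and on 1453596_at it was 0.82 (adjusted p = 0.164). With the C57B6 difference over marrows 1 to 3 subtracted the leading probe set was at 1.85, still called (adjusted p = 0.0270).

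Marker lists of cells that need ID2 were measured in the same arrays. The NK list averaged 7.84 (6.85 to 8.43) in CA10 leukemic and 7.20 (7.07 to 7.31) in CA10 healthy spleen, where the receptor gene Klrk1 was the 1 of 7 genes called higher. The dendritic cell list averaged 8.02 (6.78 to 8.97) in CA10 leukemic and 7.04 (6.86 to 7.39) in CA10 healthy spleen, with 0 of 5 called. Outside these lists, that of monocytes and macrophages averaged 9.82 (9.43 to 10.30) in CA10 leukemic and 8.88 (8.57 to 9.27) in CA10 healthy spleen. Of its 5 genes 2 were called higher and 0 lower. Between the leukemias 3 of 7 NK genes and 4 of 5 dendritic cell genes were higher in CA10 leukemic spleen, and the dendritic cell list averaged 8.02 in CA10 and 5.62 in NHD13. The part of these cells in the Id2 values was not tested. The relatives Id1 and Id3 were not called against CA10 healthy spleen, and Id1 was higher in NHD13 leukemic than in wild-type spleen (9.32 against 7.09, change 2.23, adjusted p = 0.000719) and lower in CA10 than in NHD13 leukemic spleen (8.02 against 9.32, change -1.30, adjusted p = 0.0031).

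In lineage-negative marrow the leading Id2 probe set stood at 5.60, 6.09 and 6.28 in CA10, 4.92, 5.37 and 4.51 in NHD13 and 6.48, 5.66 and 6.85 in wild-type mice. All 9 arrays lay below the whole marrows, which ran from 8.63 upwards. In wild-type mice Id2 was lower in lineage-negative than in whole marrow (change -2.65 ± 0.33, n = 3 and 6, adjusted p = 3.25e-08), and on 1422537_a_at the change was -1.14 ± 0.34 (adjusted p = 0.00932). The call on 1422537_a_at was lost without wild-type lineage-negative array 1 or 2 (adjusted p up to 0.0724). The NHD13 arrays lay below all wild-type lineage-negative arrays, but the change of -1.40 ± 0.37 was not called (unadjusted p = 0.00397, adjusted p = 0.767). The genes most like Id2 by group means were Capn2 (r = 0.989), Dock11 (0.986) and Arhgef6 (0.983).

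C57B6 marrow differed from the other wild-type marrows in Id2, Runx1 and Sox4. The leading Id2 probe set stood at 9.89, 9.72 and 9.95 in C57B6 marrow, against 9.08, 9.32, 9.17, 8.70, 8.63 and 8.96 in the others, without overlap (change 0.88 ± 0.18, adjusted p = 0.00348). The other Id2 probe sets were higher by 1.04 ± 0.26 and 0.90 ± 0.30 (adjusted p = 0.0114 and 0.0446). Runx1 probe set 1440878_at was higher (1.07 ± 0.26, adjusted p = 0.0107), while Runx1 1452530_a_at (-0.64 ± 0.18, adjusted p = 0.0218) and Sox4 1449370_at (-0.62 ± 0.15, adjusted p = 0.00901) were lower. With 1 array left out, Id2 1422537_a_at lost its call without C57B6 marrow 1 (adjusted p = 0.0662), Runx1 1440878_at without C57B6 marrow 2 (0.0709), Runx1 1452530_a_at without C57B6 marrow 1 or 3 (up to 0.0903) and Id2 1453596_at in 5 of 9 cases (up to 0.221). Those were C57B6 marrow 1 or 3 and wild-type marrow 4, 5 or 6. Against marrows 1 to 3 alone, of the same array set, the leading Id2 probe set (0.66), Id2 1422537_a_at (0.56) and Sox4 1449370_at (-0.60) kept their calls. Runx1 1440878_at (0.67, adjusted p = 0.0562), Runx1 1452530_a_at (-0.36, adjusted p = 0.0851) and Id2 1453596_at (0.58, adjusted p = 0.257) did not.

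Relatives and partners of the remaining members were followed as a list of 11 tested genes, among them Cbfb, the ETS genes Ets1, Ets2 and Fli1, and Mecom. In CA10 leukemic against CA10 healthy spleen 0 rose and 2 fell, beside 6.26% of all probe sets called, led by Ets1, a lymphocyte ETS factor, at 9.45 against 11.08 (change -1.63, adjusted p = 0.0268). Ets1 also fell in NHD13 leukemic spleen (9.07 against 11.48 in wild type, change -2.41, adjusted p = 0.00317), where Id1 was the 1 gene of the list that rose and Ets1 the 1 that fell, beside 31.2% of all. It fell in CA10 leukemic spleen against wild type too (9.45 against 11.48, change -2.03, adjusted p = 0.0345), the 1 gene of the list called there beside 7.08% of all. B cell genes were lower in all 3 comparisons, 3, 7 and 5 of 7 of them in that order, and their part in the Ets1 values was not tested. Cbfb, the partner of RUNX1, was not called in any of the 3 (adjusted p of 0.361 to 0.609). In lineage-negative against whole marrow of wild-type mice 1 was higher and 4 were lower (24% of all called), with Sox12 at 7.45 against 6.65 and Ets1 at 6.98 against 9.94.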

How the data were processed

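RNA from Trizol extracts (100 ng, biotin label, per the labels' protocols) was measured on 57 Affymetrix arrays. The deposited values are log2 signals that the authors made with RMA, per the submitters' processing notes, with no version; neither a build nor an aligner is named there. Values ran from 2.58 to 14.65 over 44943 probe sets, of which 34842 named 1 gene by the supplied platform annotation, 931 several, 9106 none and 64 were controls. Only probe sets with 1 gene were used. Of these, 28025 passed the filter.

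For each tissue a limma model (limma 3.58.1, R 4.3.3, lmFit and eBayes) held the mean of every group in that tissue. The comparison of lineage-negative with whole marrow and the F tests used all arrays in a model. The Benjamini-Hochberg adjustment ran over all tested probe sets, and a change was called at an adjusted p under 0.05. Errors beside log2 changes are standard errors of the model. A member's leading probe set is its brightest by mean over all arrays, and list genes are represented likewise. Named partners are the called genes of each list with the smallest adjusted p in each direction of a comparison; likeness is Pearson's r over 14 group means, with the 3 highest named. Klrk1, Myb, Cdh5 and Itga2b were named as single called markers after their values were seen. Members and lists were chosen with earlier results of these data known. The model was tested on simulated data with changes of 1 and 2 log2 units. In NHD13 against wild-type lineage-negative marrow it recovered 0% and 30% of these changes, and in thymus 29% and 74%. In whole marrow it recovered 58% and 94%, and in NHD13 leukemic against wild-type spleen 47% and 88%. An absent call in lineage-negative marrow or thymus therefore does not show an absent change. No 2 arrays were alike enough to be copies (highest r 0.996).

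Equal replicate numbers were checked by correlating deviations from group means. All pairs correlated in CA10 (r 0.22 to 0.69) and NHD13 (0.19 to 0.73) against wild-type lineage-negative marrow, where the block changed no member's call. Alternatives covered filters, probe sets per gene, quantile normalization, groups in the model, eBayes settings, array set, Gapdh, controls, C57B6 subtraction, the replicate block and each array left out. Those for the wide set alone, for C57B6 against subsets of marrows, for the C57B6 difference over marrows 1 to 3 and without 2 thymuses were chosen after the data were seen.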

Additional observations from a re-analysis of the deposited data

Results flagged for a closer look

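In 138 sets of 4 to 7 arrays (23 probe sets in 6 groups), a member's value was checked for a single array far from the others by Dixon's criterion, which chance meets in about 1 set in 20; it was met 11 times. Wild-type thymus 2 accounted for 7 of them. It was highest for Lyl1 (7.87, next 6.11), Lmo2 (9.43, next 7.35) and Erg 1440244_at (6.78, next 5.65), and lowest for Sox4 1433575_at (9.03, next 11.85), 1419155_a_at (6.98, next 9.18), 1419156_at (7.33, next 9.53) and 1449370_at (6.13, next 8.23). Its median correlation with the other thymuses was 0.914, and its T cell list stood at 8.72, the lowest of the wild-type thymuses. CA10 thymus 3 was lowest for Sox4 1419155_a_at (8.81, next 10.13), and wild-type thymus 6, the thymus of the narrow array set, was lowest for Runx1 1427650_a_at (6.07, next 6.54). NHD13 leukemic spleen 5 was highest for Runx1 1452530_a_at (6.27, next 5.74), and wild-type whole marrow 3 was highest for Sox4 1419157_at (6.80, next 5.70).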

How the results depend on the processing

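Sign changes were counted over 5301 values of member probe sets under other settings, where the value was called in the main analysis or under the other setting. There were 0 among those with 1 array left out and 6 among the rest. With the C57B6 marrow difference subtracted, CA10 leukemic against NHD13 leukemic spleen turned to 0.11 for Runx1 1422864_at, 0.17 for Runx1 1440878_at and -0.050 for Sox4 1455867_at. With C57B6 marrows as controls, Id2 1435176_a_at was at -0.69 in CA10 (adjusted p = 0.0185) and -0.82 in NHD13 whole marrow (0.0110), and Runx1 1440878_at at -0.99 in NHD13 whole marrow (0.0327). These whole-marrow values were called only with the C57B6 controls and not in the main analysis. The cause was not tested.

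Counts of called member probe sets moved as follows. For CA10 leukemic against CA10 healthy spleen (1 called) there were 0 with 1 probe set per gene, with only the 2 groups, and with Gapdh as a covariate. For CA10 leukemic against wild-type spleen (1) there were 0 with 1 probe set per gene, 4 with only the 2 groups and 2 with all arrays in 1 model. For NHD13 leukemic against wild-type spleen (3) there were 0 with the C57B6 marrow difference subtracted and 0 with that over marrows 1 to 3, and 1964 and 1610 of all probe sets. For CA10 against NHD13 leukemic spleen (5) there were 2 with 1 probe set per gene, and 2 and 1 with these subtractions (1088 and 465 of all). For CA10 against wild-type whole marrow (0) there were 11 against marrows 1 to 3 and 10 against C57B6 marrows (15082 and 10846 of all). For NHD13 against wild-type whole marrow (1) there were 12 against marrows 4 to 6 and 5 against C57B6 marrows (14648 and 5036 of all). For C57B6 against other wild-type whole marrow (6) there were 1 with 1 probe set per gene, 3 with all arrays in 1 model and 13 against marrows 4 to 6 (15969 of all). For wild-type lineage-negative against whole marrow (2) there was 1 with 1 probe set per gene.

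Leaving out each array in turn gave 0 to 2 for CA10 leukemic against CA10 healthy spleen (374 to 2607 of all probe sets), 0 to 1 against wild-type spleen (1 to 2082), 0 to 5 for NHD13 leukemic against wild-type spleen (3731 to 9201), 4 to 8 between the leukemias, 0 to 1 for NHD13 against wild-type whole marrow (108 to 458), 3 to 8 for C57B6 against other wild-type marrow (2953 to 7449) and 1 to 2 for lineage-negative against whole marrow. It gave 0 in the other 6 comparisons. With 2 wild-type spleens, leaving out either leaves a lone array that is assumed to vary like the other groups. Of all probe sets, 6187 to 7652 were called between the leukemias with 1 array left out, and 4478 to 6543 for lineage-negative against whole marrow.

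The replicate number as a block changed no call of a member in lineage-negative marrow, where equal numbers met the correlation rule. Replicate 3 of each of these groups is an array of the narrow set, so the rule does not show that numbers paired the arrays. Elsewhere the numbers did not pair them by the correlation rule, and the block kept only arrays with shared numbers. In spleen it gave 0 for CA10 leukemic against CA10 healthy (0 of all), and 5 for CA10 and 8 for NHD13 leukemic against wild type. In whole marrow it gave 12 for CA10 and 0 for NHD13 against wild type, and 0 for C57B6 against other wild type. The CA10 whole marrows, all of the narrow set, were there set against wild-type marrows 1 to 3, all of the wide set. Shares of all probe sets are not given for the counts of 5, 8 and 12, so these are not a result about the members. With the block, Mn1 in NHD13 whole marrow was at 1.98 (limma, adjusted p = 0.0564).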
